A study of Homo sapiens with 9 samples.

Results

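Syndecans, glypicans, CSPG4 and testicans are proteoglycans, proteins that carry long sulfated sugar chains. Their mRNA was followed here in breast cancer cells depleted of glyoxalase 1 (GLO1). The set was given as a list of 10 genes, and 10 of the 26364 genes in the count data were taken: SDC1, SDC2, SDC3, SDC4, GPC1, GPC4, GPC6, CSPG4, SPOCK1 and SPOCK3. No measured value entered the rule, but the list was chosen with earlier results of these data known. SPOCK1 and SPOCK3 encode testicans, which are secreted rather than anchored in the membrane.

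The cells were MDA-MB-231, a triple-negative human breast cancer line. GLO1 is the enzyme that removes methylglyoxal, a reactive by-product of glycolysis, and the study asked how its stable loss bears on migration and metastasis. One clone carried a non-targeting shRNA (shNT) and 2 clones, shGLO1#1 and shGLO1#2, each carried an shRNA against GLO1, with 3 RNA libraries per clone. With a single clone per shRNA, an effect of the shRNA and a trait of the clone cannot be told apart. The protocols give no further treatment and no time for the harvest.

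Libraries held between 15314238 and 18495576 counts on genes, and 13704 genes had enough counts to be tested. GLO1 itself stood at 317 ± 5.63 CPM in shNT, against 65.4 ± 0.955 in shGLO1#1 and 14.7 ± 0.760 in shGLO1#2 (each n = 3, SD), where CPM are counts brought to a common library size with TMM scaling. Of 9 listed markers of breast carcinoma lines, VIM was at 3330, 3158 and 4144 CPM in the same order of clones. The hormone receptor genes ESR1 and PGR were below 1 CPM in each clone. In that order ERBB2 was at 79.8, 75.5 and 67.9 CPM, KRT8 at 1073, 977 and 917, and KRT18 at 837, 640 and 677. CD44 was at 426, 423 and 356 CPM, EGFR at 250, 220 and 234, and EPCAM at 14.6, 13.2 and 10.7. Replicate 1 of shNT stood apart from its group for several of the 10 genes, and calls that rest on it are given with and without it.

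Syndecans are membrane-spanning proteins whose heparan sulfate chains hold growth factors and matrix proteins at the cell surface, and whose short tails bind PDZ proteins and protein kinase C. Glypicans carry heparan sulfate too but are held by a lipid (GPI) anchor. CSPG4, also called NG2, is a large membrane proteoglycan with chondroitin sulfate, known from pericytes, glial precursors and melanoma, and in breast cancer SDC1 and SDC4 are long-studied surface molecules of carcinoma cells. Testicans are secreted proteins with a calcium-binding domain shared with SPARC.

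Promoter sequences are shown for SDC1, SPOCK3 and CSPG4, whose mRNA changed in at least 1 clone, with start sites from RefSeq (GRCh38.p14). Each window has 250 bases before and 50 after the start, written along the gene's strand, which is the minus strand for all 3 genes. Capitals mark the GC box (GGGCGG on either strand, with matches that share a base counted separately), the motif of Sp1-type factors. Each GC box also holds a CpG. The windows are at chr2:20225426-20225725 for SDC1, chr4:167234445-167234744 for SPOCK3 and chr15:75712799-75713098 for CSPG4.
SDC1: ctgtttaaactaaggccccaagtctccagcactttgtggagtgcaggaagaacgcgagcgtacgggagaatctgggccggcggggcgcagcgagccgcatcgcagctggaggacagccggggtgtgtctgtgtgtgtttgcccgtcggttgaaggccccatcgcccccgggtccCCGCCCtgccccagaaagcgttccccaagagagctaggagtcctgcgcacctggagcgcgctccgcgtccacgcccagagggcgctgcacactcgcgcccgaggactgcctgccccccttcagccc
SPOCK3: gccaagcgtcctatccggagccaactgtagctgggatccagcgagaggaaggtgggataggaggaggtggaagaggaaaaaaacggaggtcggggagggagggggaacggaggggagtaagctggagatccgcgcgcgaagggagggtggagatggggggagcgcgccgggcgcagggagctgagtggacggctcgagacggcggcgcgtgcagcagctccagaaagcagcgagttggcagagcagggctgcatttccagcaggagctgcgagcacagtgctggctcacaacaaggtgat
CSPG4: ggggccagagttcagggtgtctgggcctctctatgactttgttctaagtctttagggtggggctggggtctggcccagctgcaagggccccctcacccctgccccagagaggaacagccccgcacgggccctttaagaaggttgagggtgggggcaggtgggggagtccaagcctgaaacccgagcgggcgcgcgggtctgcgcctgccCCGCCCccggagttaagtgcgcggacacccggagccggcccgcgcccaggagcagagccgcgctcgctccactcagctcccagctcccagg
The SDC1 and CSPG4 windows each held 1 GC box and the SPOCK3 window held 0, while 45% of all 35116 promoters of this length had at least 1. Their CpG counts were 27 in SDC1, 19 in CSPG4 and 22 in SPOCK3, against a median of 14 over all promoters. The other members with a window ranged from 0 GC boxes and 6 CpGs in GPC6 to 8 GC boxes in SDC4 and 46 CpGs in SDC3. SDC1 had 2 starts in the table and SPOCK3 had 3, of which the most upstream is printed. SDC2 and SPOCK1 are named only. These letters are a description of the windows, and no measurement of binding was made.

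Of the 10 genes, 9 had enough counts to be tested. A gene was called where its adjusted p was under 0.05 and its absolute log2 fold change over 1. In shGLO1#1, SDC1, SPOCK1 and SPOCK3 rose and CSPG4 fell, so 4 of the 9 were called beside 8.73% of all tested genes (3 higher beside 5.98%, 1 lower beside 2.75%). In shGLO1#2, SDC2 and SPOCK3 rose and CSPG4 fell, so 3 of the 9 were called beside 7.68% of all genes (2 higher beside 5.09%, 1 lower beside 2.59%). Without shNT replicate 1 these counts were 2 in each clone. At an adjusted p under 0.05 with any fold, 7 members passed in shGLO1#1 beside 45.7% of all genes, with 4 higher beside 22.6% and 3 lower beside 23.1%. By the same measure 5 passed in shGLO1#2 beside 38.1%, with 3 higher beside 18.3% and 2 lower beside 19.8%. Their median log2 fold change was 0.37 and -0.04, against 0.00 over all genes in both comparisons. Both comparisons share the shNT libraries and are therefore not independent of each other. In bulk RNA, fewer cells with a transcript and less transcript per cell cannot be told apart.

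**Figure D1:**
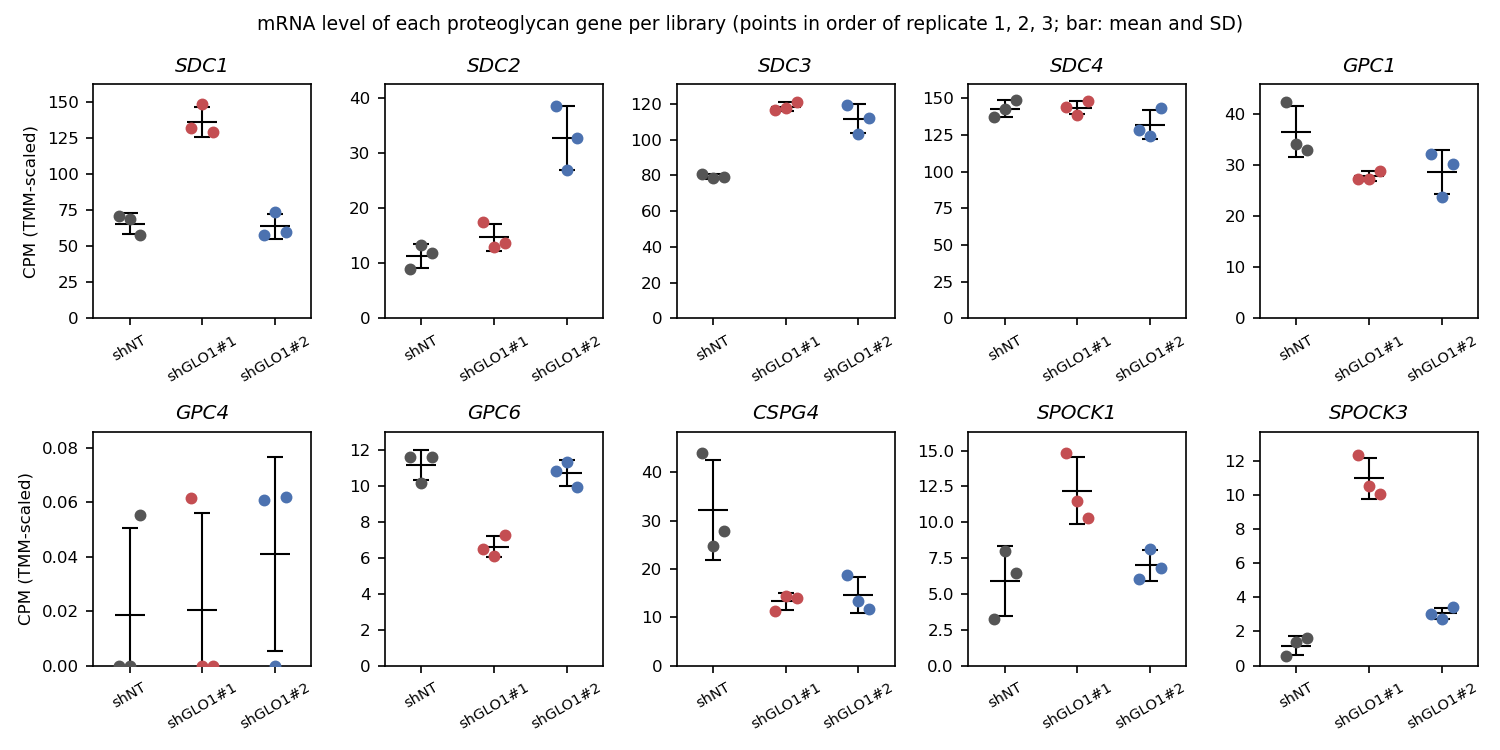
mRNA level of each of the 10 genes in CPM (y axis, linear, from 0) for the 3 libraries of shNT, shGLO1#1 and shGLO1#2 (points, in order of replicate number), with mean and SD as bars. SDC1 was high in the 3 shGLO1#1 libraries, SDC2 in the 3 shGLO1#2 libraries, and CSPG4 was lower in all 6 shGLO1 libraries than in any shNT library.

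SDC1 encodes syndecan-1, the main syndecan of epithelial cells. Its mRNA was 71.0, 68.9 and 57.7 CPM in shNT replicates 1 to 3, 132, 149 and 129 CPM in shGLO1#1, and 58.0, 73.8 and 59.8 CPM in shGLO1#2. All shGLO1#1 libraries lay above all others, and shGLO1#2 overlapped with shNT. SDC1 thus rose in shGLO1#1 by a log2 fold change of 1.05 (SE 0.10, edgeR adjusted p = 1.70e-06), a 2.08-fold difference. This value was near the limit of 1, and it was 0.97 without shNT replicate 3 and 0.99 without shGLO1#1 replicate 2, both with an adjusted p still under 0.05. In shGLO1#2 the difference from shNT was -0.04, with a 95% interval of -0.26 to 0.17 (edgeR adjusted p = 0.782). Compared directly, shGLO1#2 was lower than shGLO1#1 by a log2 fold change of -1.10 (SE 0.10, edgeR adjusted p = 1.17e-06).

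SDC2, a syndecan better known from mesenchymal cells, was high in shGLO1#2 instead. It stood at 9.0, 13.3 and 11.8 CPM in shNT, 17.6, 13.0 and 13.6 CPM in shGLO1#1, and 38.6, 26.9 and 32.7 CPM in shGLO1#2. The lowest shGLO1#2 library exceeded the highest of the other clones, while shGLO1#1 and shNT overlapped. SDC2 rose 2.87-fold in shGLO1#2 (log2 fold change 1.52, SE 0.16, edgeR adjusted p = 7.19e-06). In shGLO1#1 the value was 0.37 (95% interval 0.00 to 0.73), with an edgeR adjusted p of 0.0942, and 0.0432 with no filter on low counts. The clones differed from each other by 1.15 (SE 0.16, edgeR adjusted p = 4.68e-05), higher in shGLO1#2.

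SDC3, the syndecan with the longest ectodomain and best known from neural tissue, was higher in both clones. Its level was 80.7, 78.3 and 79.2 CPM in shNT, 117, 118 and 121 CPM in shGLO1#1, and 119.6, 103 and 112 CPM in shGLO1#2. No shGLO1 library reached down to the shNT range. The log2 fold change was 0.58 in shGLO1#1 (SE 0.06, edgeR adjusted p = 4.00e-06) and 0.49 in shGLO1#2 (SE 0.06, edgeR adjusted p = 2.12e-05). Both passed the test but lay under the fold limit, and between the clones the difference was -0.09 (95% interval -0.21 to 0.04, edgeR adjusted p = 0.247).

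SDC4, the syndecan of focal adhesions, did not pass the test in any comparison. It was measured at 137, 142 and 149 CPM in shNT, 144, 139 and 148 CPM in shGLO1#1, and 128, 125 and 143 CPM in shGLO1#2. The 3 groups overlapped. The log2 fold change was 0.0060 in shGLO1#1 (95% interval -0.12 to 0.14, edgeR adjusted p = 0.946) and -0.11 in shGLO1#2 (95% interval -0.25 to 0.02, edgeR adjusted p = 0.160). Both intervals stayed within 0.25 of 0 on the log2 scale. The clones differed by -0.12 (95% interval -0.25 to 0.01, edgeR adjusted p = 0.123). Some settings brought SDC4 past the test: between the clones the adjusted p was 0.0355 with the replicate number as a block, 0.0301 with no composition factor and 0.0303 without shGLO1#2 replicate 3 (log2 values -0.12, -0.17 and -0.18), and against shNT it was 0.0458 without that library (-0.17). A processed copy of SDC4 exists in the genome, and whether reads were shared with it was not tested.

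GPC1, a glypican studied in many carcinomas, was lower in both clones by a small margin that depended on single libraries. Its mRNA was 42.2, 34.2 and 33.0 CPM in shNT, 27.3, 27.1 and 28.9 CPM in shGLO1#1, and 32.0, 23.7 and 30.1 CPM in shGLO1#2. Each shGLO1 library lay under each shNT library. The log2 fold change was -0.39 in shGLO1#1 (SE 0.11, edgeR adjusted p = 0.0132) and -0.35 in shGLO1#2 (SE 0.11, edgeR adjusted p = 0.0279). Without shNT replicate 1 the values were -0.28 (edgeR adjusted p = 0.0664) and -0.23 (edgeR adjusted p = 0.135), so neither passed the test. In shGLO1#2 it also failed without shGLO1#2 replicate 2 (-0.22, edgeR adjusted p = 0.143) and with only the 6 libraries compared (-0.34, edgeR adjusted p = 0.0562). The clones were 0.04 apart (95% interval -0.21 to 0.29, edgeR adjusted p = 0.792).

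GPC6, a glypican known from developing mesenchyme, was lower in shGLO1#1. Its level was 11.6, 10.2 and 11.6 CPM in shNT, 6.48, 6.09 and 7.24 CPM in shGLO1#1, and 10.8, 11.3 and 9.93 CPM in shGLO1#2. The shGLO1#1 libraries were under all others, and shGLO1#2 overlapped with shNT. GPC6 fell in shGLO1#1 by a log2 fold change of -0.75 (SE 0.12, edgeR adjusted p = 1.85e-04), under the fold limit. In shGLO1#2 the value was -0.06 (95% interval -0.30 to 0.19, edgeR adjusted p = 0.731), and the direct difference between the clones was 0.70 (SE 0.12, edgeR adjusted p = 3.41e-04). GENCODE 29 lists genes on the opposite strand within GPC6 and GPC1, whose reads cannot be separated in a kit that does not mark the strand.

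GPC4, the tenth gene, was close to absent from these libraries. Its counts were 0, 0 and 1 in shNT, 1, 0 and 0 in shGLO1#1, and 1, 0 and 1 in shGLO1#2. It was not tested, and a difference between clones was not detectable at this depth. All 3 groups were under the floor of 3 counts per group, which corresponds to 0.0608, 0.0592 and 0.0590 CPM and covers counting error only. Of the other glypicans, GPC3 had 0 counts in all 9 libraries, which allows up to that same floor, and GPC5 had between 0 and 3 counts per library. GPC2 had 16, 11 and 8 counts in shNT, 25, 30 and 22 in shGLO1#1, and 11, 21 and 10 in shGLO1#2.

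CSPG4 fell in both clones. Its mRNA was 44.0, 24.8 and 27.8 CPM in shNT, 11.4, 14.5 and 14.03 CPM in shGLO1#1, and 18.7, 13.3 and 11.7 CPM in shGLO1#2. All shGLO1 libraries were under the lowest shNT library, and shNT replicate 1 was far above the other shNT libraries. The log2 fold change was -1.27 in shGLO1#1 (SE 0.21, edgeR adjusted p = 2.09e-04) and -1.14 in shGLO1#2 (SE 0.20, edgeR adjusted p = 5.79e-04). Without shNT replicate 1 it was -0.99 and -0.85, still with adjusted p under 0.05 but no longer past the fold limit. The clones differed by 0.13 (95% interval -0.33 to 0.60, edgeR adjusted p = 0.648). GENCODE 29 lists 9 pseudogenes of CSPG4, 5 of them on its own chromosome, and 2 genes on the opposite strand, so its counts are uncertain to the extent that reads were shared.

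Since CSPG4 is also a marker of pericytes and melanocytic cells, other markers of these cells were read beside it. The summed level of 11 pericyte and fibroblast genes was 251 to 326 CPM in shNT, 134 to 137 CPM in shGLO1#1 and 171 to 178 CPM in shGLO1#2. Most of this was MCAM, at 253, 112 and 147 CPM, while DES, THY1 and FAP had 0 counts in shNT. The sum of 8 neural and melanocytic genes was 110 to 133, 60.4 to 72.5 and 63.0 to 80.4 CPM, mostly MITF at 114, 54.0 and 63.0 CPM, with SOX10, OLIG2, NCAM1 and DCX at 0 in every clone. Both genes were lower in both clones at an edgeR adjusted p under 0.05, and their part in the change of CSPG4 was not tested. Other markers of the same lists were mixed. At an edgeR adjusted p under 0.05, 4 of 6 tested pericyte and fibroblast genes were lower in shGLO1#1 and 0 higher. The shares of all genes there were 23.1% and 22.6%. Besides MCAM these were ACTA2 (log2 fold change -1.39), PDGFRB (-0.999) and RGS5 (-0.37). In shGLO1#2, 1 was lower and 1 higher, beside 19.8% and 18.3%. PDGFRB was 2.42 ± 0.844 CPM in shNT, against 1.204 ± 0.137 in shGLO1#1 and 5.22 ± 1.82 in shGLO1#2, where it was called higher. GFAP was 3.43 ± 0.0982, 8.45 ± 0.626 and 5.05 ± 1.03 CPM and was called higher in shGLO1#1, and COL1A1 was 10.5 ± 3.06, 12.4 ± 1.21 and 12.2 ± 3.26 CPM. The summed endothelial list (6 genes) was 4.43 to 5.80 CPM in shNT, 6.27 to 8.02 in shGLO1#1 and 7.87 to 9.81 in shGLO1#2. The leukocyte list (6 genes) was 8.15 to 11.5, 6.97 to 7.87 and 4.58 to 7.13 CPM. Of the endothelial genes, PECAM1 was called higher in both clones and VWF in shGLO1#2. Of the leukocyte genes, PTPRC was called lower in both clones and CSF1R higher in shGLO1#1.

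SPOCK1 encodes testican-1, studied in carcinoma invasion. It was measured at 3.23, 8.02 and 6.48 CPM in shNT, 14.8, 11.5 and 10.3 CPM in shGLO1#1, and 6.03, 8.15 and 6.83 CPM in shGLO1#2. The shGLO1#1 libraries lay above all others, shGLO1#2 overlapped with shNT, and shNT replicate 1 was the lowest of the 9. SPOCK1 rose in shGLO1#1 by a log2 fold change of 1.04 (SE 0.24, edgeR adjusted p = 0.00300). The value was 0.75 without shNT replicate 1 and 0.88 without shGLO1#1 replicate 1, both past the test and under the fold limit. In shGLO1#2 it was 0.24 (95% interval -0.30 to 0.78, edgeR adjusted p = 0.489), and shGLO1#2 was lower than shGLO1#1 by a log2 fold change of -0.79 (SE 0.23, edgeR adjusted p = 0.0128). Without shGLO1#1 replicate 1 that difference was -0.64 and did not pass (edgeR adjusted p = 0.0681).

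SPOCK3, or testican-3, is best known from brain and had the largest fold of the 9 tested genes in shGLO1#1, while in shGLO1#2 that of SDC2 was larger. Its counts were 8, 21 and 29 in shNT, 200, 194 and 176 in shGLO1#1, and 50, 49 and 55 in shGLO1#2. In CPM this was 0.538, 1.37 and 1.61, then 12.3, 10.6 and 10.04, then 3.05, 2.74 and 3.41. The 3 groups did not overlap, with shNT lowest and shGLO1#1 highest. SPOCK3 rose 9.13-fold in shGLO1#1 (log2 fold change 3.19, SE 0.24, edgeR adjusted p = 2.57e-07) and 2.55-fold in shGLO1#2 (1.35, SE 0.28, edgeR adjusted p = 0.00153). Without shNT replicate 1 the log2 values were 2.87 and 1.03. Between the clones the log2 difference was -1.84 (SE 0.20, edgeR adjusted p = 8.04e-06). SPOCK2, the remaining testican, had 2 to 16 counts per library and was not tested.

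**Figure D2:**
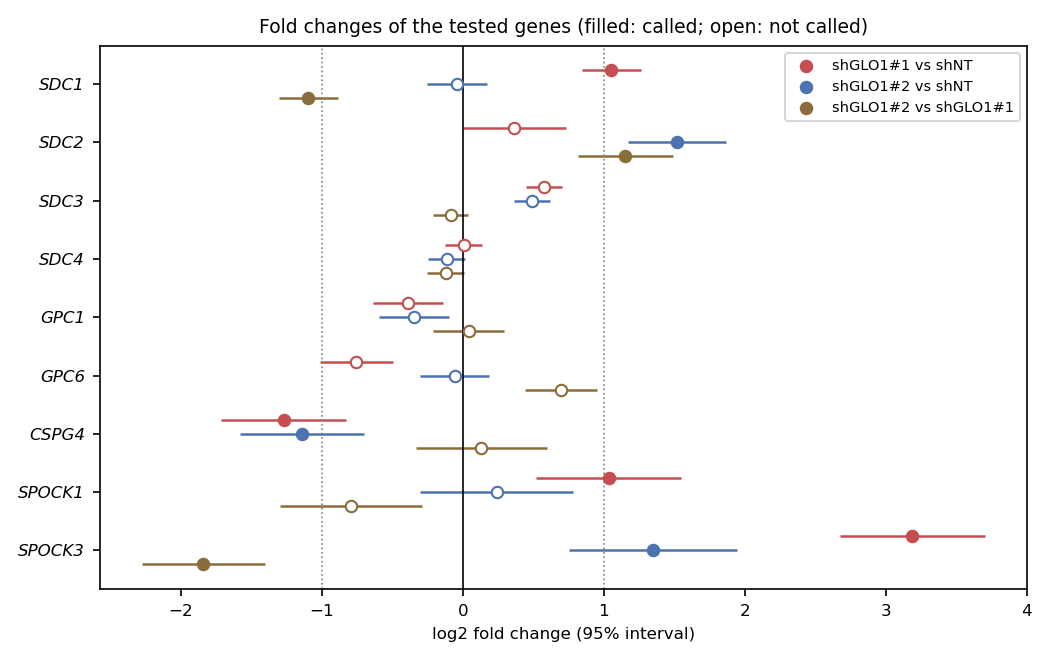
log2 fold change (x axis) with 95% interval (line) of the 9 tested genes in shGLO1#1 against shNT, shGLO1#2 against shNT and shGLO1#2 against shGLO1#1, with filled points for called genes and dotted lines at the fold limit of 1. CSPG4 and SPOCK3 were called in both clones against shNT, and SDC1, SDC2 and SPOCK3 between the clones.

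Clone against clone, 3 of the 9 tested genes were called between shGLO1#2 and shGLO1#1 beside 7.09% of all genes. SDC2 was the 1 gene higher in shGLO1#2, beside 3.33% of all genes, and SDC1 and SPOCK3 were the 2 lower ones, beside 3.75%. GPC6 and SPOCK1 passed the test with a smaller fold, so that 5 members differed at an edgeR adjusted p under 0.05 beside 46.5% of all genes (2 higher beside 22.8%, 3 lower beside 23.7%). SDC3, SDC4, GPC1 and CSPG4 did not pass the test between the clones, and their 95% intervals, given above, reached at most 0.60 from 0.

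**Figure D3:**
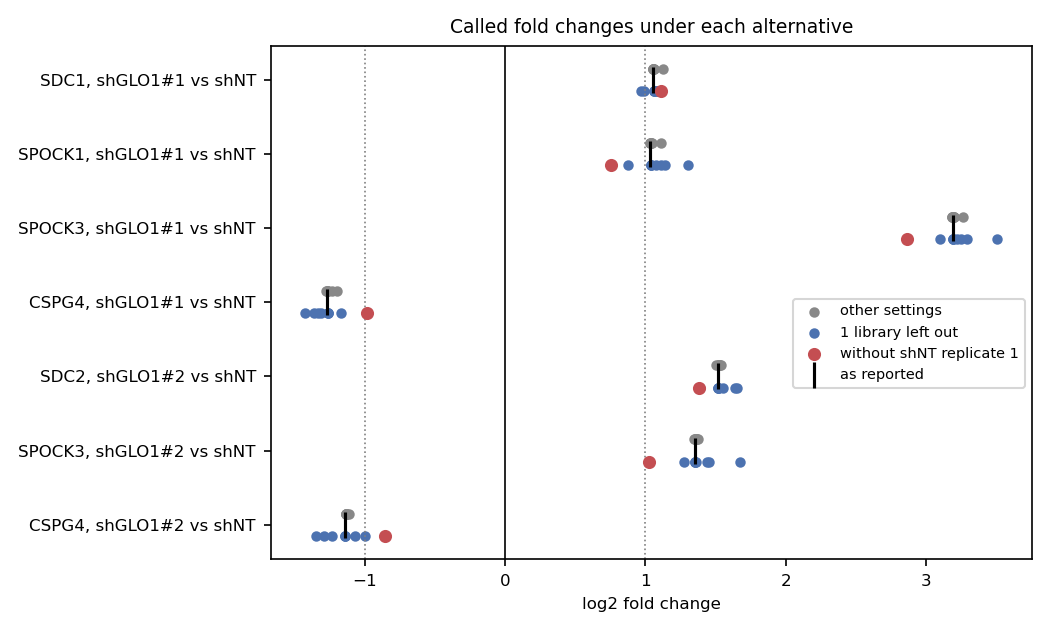
log2 fold change (x axis) of the 7 calls against shNT under each other setting: other normalizations, tests and filters (grey), 1 library left out (blue), shNT replicate 1 left out (red) and the value as reported (black tick), with dotted lines at the fold limit of 1. Every value kept its side of 0, and SDC1 and SPOCK1 in shGLO1#1 and CSPG4 in both clones each came under the limit when 1 library was left out.

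Levels of different genes were compared per kilobase of merged exon (CPM per kb). SDC4 was the highest of the 10 in each clone, at 54.7 CPM per kb in shNT, against 54.9 in shGLO1#1 and 50.5 in shGLO1#2. SDC1 followed at 18.3, 38.0 and 17.8, then SDC3 at 11.2, 16.8 and 15.8. In shGLO1#2 the libraries of SDC1 and SDC3 overlapped, so their order there is not settled. GPC1 held the next place in shNT and shGLO1#1 at 5.59 and 4.26, and in shGLO1#2 SDC2 came before it, at 7.22 against 4.39. CSPG4 at 3.89 overlapped with GPC1 in shNT, and in shGLO1#1 it was 1.60, overlapping with SPOCK1 at 1.96. SPOCK1 in turn overlapped with SPOCK3 at 2.45, which in shNT and shGLO1#2 was the lowest of the 9 tested genes at 0.261 and 0.684. CSPG4 at 1.76 and GPC6 at 1.65 overlapped in shGLO1#2. GPC4 was last in each clone, and the ranks were the same with the length of the longest transcript.

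Summed over the 4 genes, the syndecan level was 86.8 ± 1.04 CPM per kb in shNT, against 113 ± 0.924 in shGLO1#1 and 91.4 ± 2.97 in shGLO1#2 (each n = 3, SD). The libraries of the 3 clones did not overlap, although shGLO1#2 at 88.7 to 94.6 was close to shNT at 85.6 to 87.7. The mix differed too. SDC4 made up 63.0% of the syndecan level in shNT, 48.6% in shGLO1#1 and 55.3% in shGLO1#2, while SDC1 was 21.1%, 33.6% and 19.5%. SDC2 was 2.89%, 2.88% and 7.90%, and SDC3 was 13.0%, 14.9% and 17.3%. These sums were not tested.

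The glypican sum, of GPC1, GPC4 and GPC6, was 7.32 ± 0.825 CPM per kb in shNT, against 5.29 ± 0.232 in shGLO1#1 and 6.06 ± 0.613 in shGLO1#2. GPC4 added almost nothing, and GPC2, GPC3 and GPC5 were outside the set and not summed. GPC6 was 23.7%, 19.3% and 27.6% of this sum. The testican sum, of SPOCK1 and SPOCK3 without SPOCK2, was 1.21 ± 0.505, 4.41 ± 0.645 and 1.81 ± 0.143 CPM per kb. SPOCK3 was 21.2% of the testican level in shNT, 55.7% in shGLO1#1 and 38.0% in shGLO1#2. Testicans therefore stood far below syndecans in each clone, also where SPOCK3 was highest.

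**Figure D4:**
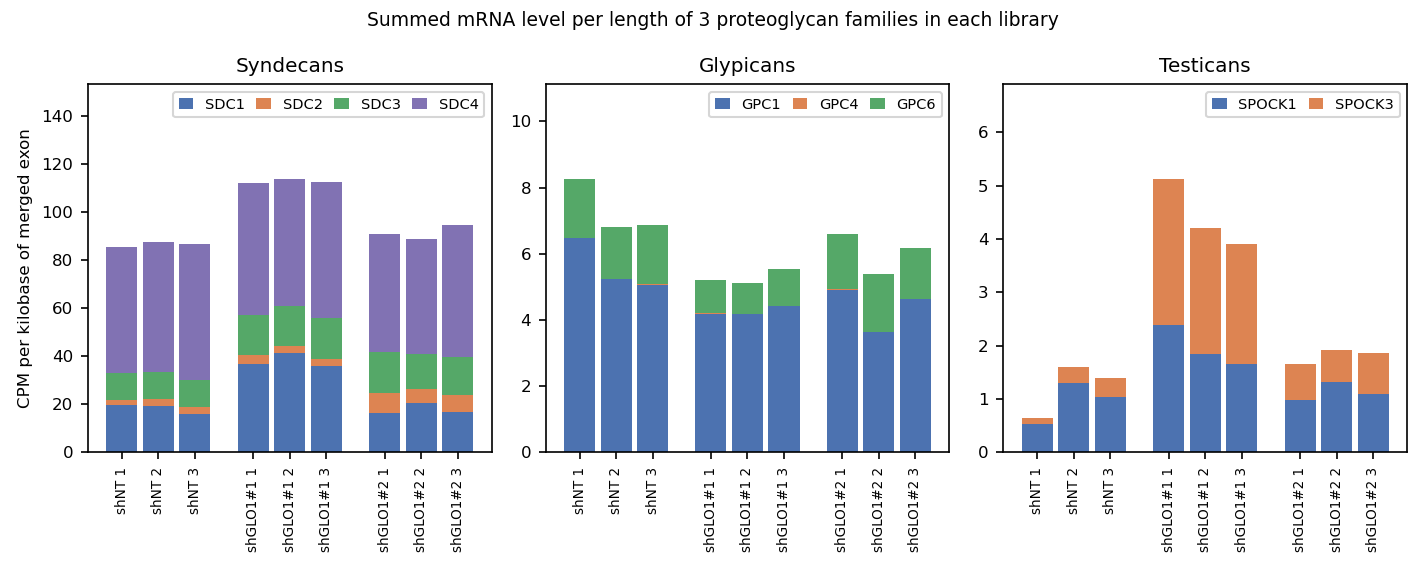
Summed mRNA level per length (y axis, CPM per kilobase of merged exon, from 0, a different scale in each panel) of the set's syndecans, glypicans and testicans in each library, with genes stacked by colour. The SDC1 segment is tallest in shGLO1#1 and the SDC2 segment in shGLO1#2, and the testican bars of shGLO1#1 are the tallest of their panel.

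For each of the 5 called genes, the 3 genes with the most similar profile were found by Pearson's r of log2(CPM + 0.5) over the 9 libraries, among 12759 genes with a mean of at least 1 CPM. The points share 3 clones, so r mostly reflects the order of the clones, and it is given as a description. SPOCK3 was most like OAS2 (r = 0.996), HCP5 (0.995) and GBP4 (0.993). GBP4, a guanylate-binding protein, stood at 1.03, 7.66 and 2.49 CPM in shNT, shGLO1#1 and shGLO1#2, and OAS2, an antiviral oligoadenylate synthetase, at 13.8, 58.7 and 24.03 CPM. SDC1 was most like GBP1 (0.986), WFS1 (0.985) and HADHB (0.985), with WFS1 at 48.9, 100.4 and 48.3 CPM.

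The nearest profiles to SDC2 were MYO1D (0.989), TNFSF15 (0.987) and MSI2 (0.985). MYO1D, an unconventional myosin, was 4.87, 7.68 and 31.6 CPM, a steeper rise in shGLO1#2 than that of SDC2 itself. CSPG4 was most like GSE1 (0.989), PDLIM1 (0.977) and CUEDC2 (0.9751), with GSE1 at 82.5, 44.97 and 49.7 CPM. SPOCK1 was most like ZNF766 (0.982), FAM20C (0.965) and CCDC93 (0.958), of which FAM20C, a kinase of secreted proteins, was 7.75, 13.3 and 9.18 CPM.

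Related proteoglycans outside the set, not all of them surface proteins (SPOCK2 and SMC3), were read from a list of 14 genes. Of these, 9 were tested, SMC3 among them. In shGLO1#1, 3 were called higher beside 5.98% of all genes and 1 lower beside 2.75%. In shGLO1#2, 1 was called higher beside 5.09%. CD74, the invariant chain of MHC class II that can carry chondroitin sulfate, rose in both clones, from 28.1 ± 2.96 CPM to 69.2 ± 1.87 and 69.8 ± 5.46, with log2 fold changes of 1.30 and 1.31 (SE 0.08 each). CSPG5, a neural membrane proteoglycan, rose in shGLO1#1 by 1.61 (SE 0.15). Chosen after their values were seen, GPC2 was also called higher in shGLO1#1 (1.01, SE 0.34) and TGFBR3, or betaglycan, lower (-1.09, SE 0.12). The 3 higher calls became 2 with DESeq2, without shNT replicate 2 or without shGLO1#1 replicate 1. They became 4 with no composition factor, with a minimum mean of 1 CPM, with only the 6 libraries compared and without any single shGLO1#2 library, and NRP1, a co-receptor named after its value was seen, lay at 0.998 (SE 0.06).

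The sugar chains are built on a linkage tetrasaccharide, extended by polymerases and then sulfated. Of 6 tested linkage genes, PXYLP1, the phosphatase that clears xylose phosphate from the linkage, rose in both clones (1.12 and 1.15, SE 0.25 each), and the count in shGLO1#2 was 0 without shGLO1#2 replicate 1. The 4 tested heparan sulfate polymerase genes had 0 calls in either clone by edgeR and by DESeq2. Here the fold limit was decisive, since 3 in shGLO1#1 and 1 in shGLO1#2 passed at p under 0.05, both unadjusted and adjusted. At the adjusted p this stood beside 45.7% and 38.1% of all genes. EXT1 was 274 ± 14.6, 235 ± 13.5 and 301 ± 23.6 CPM and EXT2 was 108 ± 3.27, 122 ± 5.66 and 109 ± 2.32 CPM.

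Of 20 heparan sulfate modifying genes, 10 were tested, with 1 called higher and 1 lower in each clone. Of all genes, 5.98% were called higher and 2.75% lower in shGLO1#1, and 5.09% and 2.59% in shGLO1#2. With any fold at an edgeR adjusted p under 0.05, shGLO1#1 had 4 higher and 3 lower, beside 22.6% and 23.1% of all genes. By the same measure shGLO1#2 had 3 higher and 6 lower, beside 18.3% and 19.8%. HS3ST3B1, which adds a rare 3-O sulfate, fell from 15.3 ± 2.12 CPM to 6.68 ± 0.749 and 5.73 ± 1.47 (log2 fold changes -1.19 and -1.41, SE 0.17 each). NDST3, a deacetylase and sulfotransferase, was near the limit of detection at 0.302 ± 0.126, 1.13 ± 0.242 and 0.764 ± 0.287 CPM (1.84, SE 0.40, and 1.30, SE 0.44). With a minimum mean of 1 CPM NDST3 was not tested, and with no filter a further gene was called lower in each clone. In shGLO1#2 the count of higher calls was 0 with DESeq2, with only the 6 libraries compared, and when shNT replicate 1 or 2 or replicate 2 or 3 of shGLO1#2 was left out.

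Of 15 tested chondroitin and dermatan sulfate genes, 0 were called in shGLO1#1 by edgeR and by DESeq2 (10 at an unadjusted p under 0.05). In shGLO1#2, 2 were called lower beside 2.59% of all genes. With any fold at an edgeR adjusted p under 0.05, 6 were higher and 2 lower in shGLO1#1, beside 22.6% and 23.1% of all genes, and 3 were higher and 6 lower in shGLO1#2, beside 18.3% and 19.8%. CSGALNACT1, which starts chondroitin chains, was 19.2 ± 2.14, 16.4 ± 0.575 and 7.49 ± 1.02 CPM and fell in shGLO1#2 by a log2 fold change of -1.36 (SE 0.12). CHST3, which sulfates chondroitin, was 108 ± 5.06, 103 ± 11.0 and 50.9 ± 6.59 CPM and fell there by -1.08 (SE 0.09). The count of 2 lower was 1 without shGLO1#2 replicate 1 and 3 without shGLO1#2 replicate 2, and without shNT replicate 3 there was 1 higher call beside the 2.

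Sheddases cut ectodomains from the cell and GPI-cleaving enzymes release glypicans, and 9 of 16 listed genes were tested. In shGLO1#1, 1 was called higher beside 5.98% of all genes and 1 lower beside 2.75%. In shGLO1#2, 1 was called higher beside 5.09%. MMP14, a membrane metalloproteinase that cuts SDC1, was 330 ± 9.45 CPM in shNT, against 663 ± 30.7 in shGLO1#1 and 443 ± 40.6 in shGLO1#2. It was called in shGLO1#1 at 1.01 (SE 0.07), a call that was lost without shNT replicate 3 or shGLO1#1 replicate 2, when 1 gene of the list was called. MMP15 was called lower there at -1.53 (SE 0.19). In shGLO1#2 GPLD1, a phospholipase that cleaves GPI anchors, was called higher at 1.53 (SE 0.35) from 0.432 ± 0.0924 to 1.27 ± 0.265 CPM, and 2 genes of the list were called there without shNT replicate 3 or with no filter on low counts. With a minimum mean of 1 CPM GPLD1 was not among the genes tested, and the count was 0.

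Among cytoplasmic partners of syndecans and CSPG4, 15 of 16 genes were tested and 0 were called in either clone by edgeR and by DESeq2, with 6 in each at an unadjusted p under 0.05. With any fold at an adjusted p under 0.05, shGLO1#1 had 1 higher and 5 lower, beside 22.6% and 23.1% of all genes. By the same measure shGLO1#2 had 1 higher and 4 lower, beside 18.3% and 19.8%. SDCBP, or syntenin, which binds syndecan tails, was 354 ± 4.27, 297 ± 19.3 and 276 ± 8.68 CPM, with log2 fold changes of -0.25 and -0.36 (SE 0.05 each).

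Growth factors and receptors that bind heparan sulfate were represented by 15 tested genes of 22. In shGLO1#1, 1 was called higher beside 5.98% of all genes and 1 lower beside 2.75%. In shGLO1#2, 2 were called higher beside 5.09% and 1 lower beside 2.59%. PTN, or pleiotrophin, a ligand of chondroitin and heparan sulfate, rose in both clones, with 1.41 ± 0.683 CPM in shNT, against 12.1 ± 1.76 in shGLO1#1 and 5.52 ± 0.409 in shGLO1#2 (log2 fold changes 3.09, SE 0.23, and 1.97, SE 0.25). AREG, an EGFR ligand, was lower in shGLO1#1 (-1.13, SE 0.17), and the list's lower calls there were 0 without shNT replicate 1 and 2 with DESeq2, RLE factors, no filter or without shNT replicate 2 or 3 or replicate 1 of shGLO1#1. MET, the receptor of hepatocyte growth factor, was 573 ± 27.3, 464 ± 19.5 and 230.0 ± 28.7 CPM and fell in shGLO1#2 by -1.32 (SE 0.08). PDGFRB, named after its values were seen, was the other gene called higher in shGLO1#2, at 1.10 (SE 0.29), and the list had 1 higher call rather than 2 without shNT replicate 2 or without replicate 1 of shGLO1#2.

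Of 20 secreted proteoglycans 7 were tested. In shGLO1#1, 2 were called lower beside 2.75% of all genes. In shGLO1#2, 1 was called higher beside 5.09% and 1 lower beside 2.59%. LUM, the matrix proteoglycan lumican, fell in both clones from 4.73 ± 0.745 CPM to 0.901 ± 0.159 and 0.277 ± 0.193 (log2 fold changes -2.39, SE 0.27, and -4.06, SE 0.34). SRGN, the intracellular granule proteoglycan serglycin, was 114 ± 1.87, 52.1 ± 2.93 and 152 ± 4.84 CPM, lower in shGLO1#1 (-1.12, SE 0.06) and higher in shGLO1#2 (0.42, SE 0.05) at an edgeR adjusted p under 0.05. FMOD, or fibromodulin, rose in shGLO1#2 from 0.287 ± 0.0391 to 1.86 ± 0.489 CPM (2.64, SE 0.33), and it was not tested with a minimum mean of 1 CPM.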

How the data were processed

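RNA was measured in 9 libraries of MDA-MB-231 cells, 3 for each of 3 clones, from the unstranded Illumina TruSeq RNA kit. Per the submitters' notes the authors used bcl2fastq 2.17, aligned reads to hg19 with TopHat2 2.1.1 and counted with HTSeq, and they deposited raw counts per gene symbol. The version of HTSeq, its annotation and its strand setting were not given in the sources used here.

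Tests were run with edgeR 4.0.16 in R 4.3.3 (filterByExpr with minimum count 10 and minimum total 15, TMM, and quasi-likelihood models of all 9 libraries), with Benjamini-Hochberg adjustment over the 13704 genes tested. Alignments on a gene were 77.1% to 79.5% of those counted, and those on none (12.8% to 15.2%) were left out. Also left out were ambiguous ones (1.50% to 1.95%) and those without a unique place in the genome (5.76% to 6.15%). The study's legend gives the call limits of 0.05 and 1. SE was taken from the size of the log2 fold change over the root of its F statistic, and intervals are 95%. All p-values rest on the variation among libraries from 1 clone. Libraries of a clone were checked for copies, and none agreed within sampling noise (chi-square per degree of freedom 2.98 to 8.14). Lengths came from GENCODE 29 (GRCh38) and promoters from RefSeq (GRCh38.p14). The test was checked on simulated data.

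The members and gene lists were chosen with earlier results of these data known. Named were all 10 members and GLO1. Of each other list the rule took the genes called in both clones in 1 direction and the 2 with the largest called change per clone. For each called member it took the 3 most similar genes. Further genes of a list (among them EXT1, EXT2, SDCBP, GPC2, TGFBR3, NRP1, PDGFRB and the marker genes) were named after their values were seen.

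Deviations from clone means correlated between same-numbered libraries of shGLO1#2 and shNT at 0.28, 0.22 and 0.38, each the best match. For shGLO1#1 and shNT they were -0.01, 0.08 and 0.31, and between the shGLO1 clones 0.22, 0.07 and 0.41. Replicates 1 and 2 of shGLO1#1 matched shNT replicates 2 and 1 best, so a pairing by number is not settled by the data. The main model held no block for the numbers. Alternatives were DESeq2 1.42.0, RLE factors or no composition factor, other filters, fewer libraries in the fit, a replicate block and leaving out each library. The longest transcript as length was added after seeing the data.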

Additional observations from a re-analysis of the deposited data

Results flagged for a closer look

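In 5 of the 9 tested genes the effect of GLO1 depletion differed between the clones, by edgeR's direct contrast of shGLO1#2 with shGLO1#1. At an adjusted p under 0.05 this stood beside 46.5% of all genes. The effect in shGLO1#2 minus that in shGLO1#1, on the log2 scale, was -1.10 for SDC1 (adjusted p = 1.17e-06), 1.15 for SDC2 (adjusted p = 4.68e-05), 0.70 for GPC6 (adjusted p = 3.41e-04), -0.79 for SPOCK1 (adjusted p = 0.0128) and -1.84 for SPOCK3 (adjusted p = 8.04e-06). Without shGLO1#1 replicate 1 the SPOCK1 difference was -0.64 (edgeR adjusted p = 0.0681). SPOCK3 was higher than shNT in both clones, more so in shGLO1#1. GLO1 was lower in shGLO1#2 than in shGLO1#1, and with 1 clone per shRNA the degree of depletion, the shRNA and the clone cannot be told apart.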

How the results depend on the processing

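Of 432 log2 fold changes of members (27 values under 16 alternatives), 417 kept direction and call, 6 lost a call to the fold limit alone, with adjusted p under 0.05 in all 6, and 9 changed direction, none of them called. Leaving out 1 library gave 2 to 4 members called in shGLO1#1 (2 without shNT replicate 1), 2 to 3 in shGLO1#2 and 3 between the clones, and 12 to 15, 9 to 15 and 14 to 18 calls over the other lists under all alternatives. The changes of direction were near 0. Over the libraries left out, SDC4 in shGLO1#1 ranged from -0.024 (without shNT replicate 1) to 0.042, SDC1 in shGLO1#2 from -0.15 to 0.032 (without shGLO1#2 replicate 1) and SPOCK1 in shGLO1#2 from -0.042 (without shNT replicate 1) to 0.51. Between the clones and without shGLO1#2 replicate 1, GPC1 was -0.045 and CSPG4 -0.083, with upper ends of 0.17 and 0.27, and GPC1 was -0.0085 with no composition factor. The cause was not tested. With the replicate block 4, 3 and 3 members were called, and it changed no call or count among 63 results, though SDC4 between the clones passed the test below the fold limit (adjusted p = 0.0355). Without the fold limit, GPC1 against shNT, SPOCK1 between the clones, SDC2 in shGLO1#1 and SDC4 changed sides of the test in some setting, with the values given beside them. By the longest transcript SDC4 was 60.7%, 46.2% and 52.5% of the syndecan level, GPC6 15.02%, 11.998% and 17.9% of the glypican level and SPOCK3 58.9% of the testican level in shGLO1#1. Depth limits GPC4, GPC3, GPC5 and SPOCK2, and SPOCK3 in shNT, where 8 to 29 counts lay behind each value.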
